A study of Mus musculus with 6 samples.

Results

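Blood vessel genes were followed in iWAT (the inguinal white fat pad under the skin) of cold-acclimated mice with and without adipocyte Nrg4. The 10 genes encode the secreted angiogenic factors Vegfa, Vegfb, Vegfc, Angpt1 and Angpt2, their receptors Kdr, Flt1 and Tek, and the endothelial junction proteins Pecam1 and Cdh5. They were chosen by symbol for their known role, with earlier results of these data known. All 10 were found among the 16538 genes of the RNA-Seq table. Control samples carry the label wt (fl/fl littermates in the study's text, wild type in the design text), and AKO samples carry the label NRG4-AKO and come from mice in which Adiponectin-Cre deletes floxed Nrg4 in adipocytes. Housing was at 8°C in both groups, and the labels give 10 days of it, while the study's text gives a longer period. Each of the 3 control and 3 AKO samples held RNA of 2 mice of the same genotype. Age and sex are not given in the sources used here. The Cre acts in adipocytes, so that endothelial cells of AKO mice keep their own Nrg4 gene.

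VEGFA is the main growth factor of blood vessels and signals through the receptor KDR (VEGFR2) on endothelial cells, while FLT1 (VEGFR1) binds VEGFA and VEGFB and can hold VEGFA back. ANGPT1 activates the endothelial receptor TEK (TIE2) and steadies vessels, and ANGPT2 often opposes it during remodeling. Fat is richly supplied with capillaries, and VEGFA made by adipocytes supports them, in particular when fat turns thermogenic in the cold. The comparison of AKO with control iWAT addresses whether the RNA of these factors and of endothelial cells differs without adipocyte NRG4. In bulk tissue, fewer cells of a type and less RNA per cell cannot be told apart.

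Between 17570335 and 18373707 reads per sample lay in genes of the table, and the values are normalized counts, which are reads after division by the size factor of the sample. Nrg4 was at 84.7% of control in AKO, with normalized counts of 3108 ± 18.3 in control and 2632 ± 57.3 in AKO (SD, n = 3), no overlap and an adjusted p of 0.298 in limma. The count covers the whole gene and not the deleted part alone. By qPCR, the study's text reports Nrg4 mRNA as nearly absent from iWAT of AKO mice. All 10 adipocyte markers were detected in every sample. Skeletal muscle RNA varied widely, with the sum of 13 muscle markers from 179 to 27389 normalized counts in control and from 20155 to 118199 in AKO. The sum of 8 lymphocyte markers ran from 181 to 931 in control and from 180.3 to 1275 in AKO. Of 8 mammary gland epithelial markers, the 6 tested summed to between 10.8 and 1183 in control and between 132 and 1550 in AKO, and 4 of the 7 measured were at 0 in a control sample. The part of these tissues in the results below was not tested, apart from a fit with the muscle level as a covariate.

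The levels of the 10 genes differed widely when divided by exonic length. Vegfb was highest, with 2299 ± 49.6 normalized counts per kilobase (SD, n = 3) in control, before Cdh5 with 1808 ± 70.3 and Vegfa with 1637 ± 91.3. Pecam1 followed at 649.6 ± 36.4, Kdr at 409 ± 28.7, Tek at 223 ± 10.9 and Flt1 at 129 ± 3.81. The angiopoietins were lower, with Angpt1 at 92.0 ± 13.1 and Angpt2 at 39.0 ± 1.09, and Vegfc was lowest at 22.8 ± 2.56. The order was the same in the AKO samples, and no gene overlapped its neighbor in this order in either group. The length counts the exons of all annotated isoforms, so that genes with long rare exons, such as Flt1 with 13504 bases, are placed lower than their main transcript would be.

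**Figure D1:**
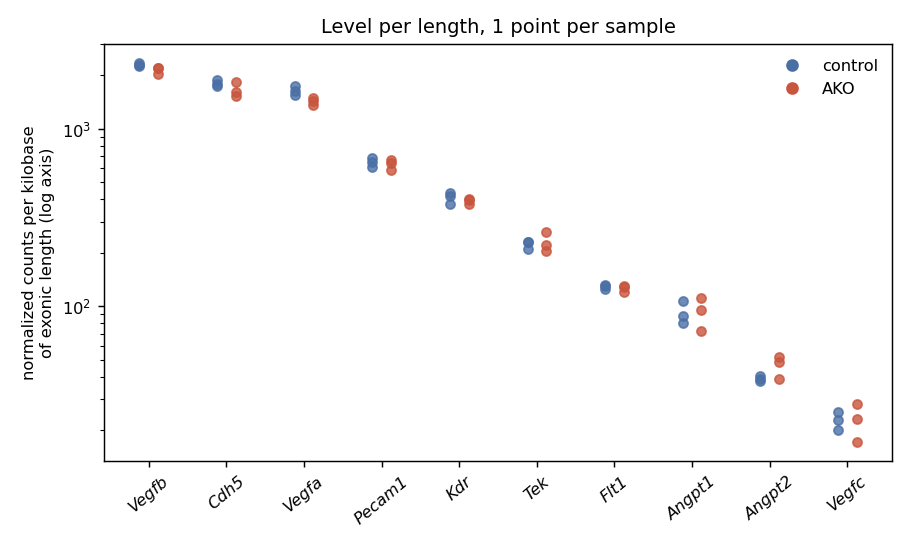
Normalized counts per kilobase of exonic length (log axis) for each of the 10 genes, 1 point per sample, control in blue and AKO in red. Vegfb, Cdh5 and Vegfa lie highest, all above 1361, and Vegfc lies lowest.

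Vegfa, the main vessel growth factor, had the lowest p of the 10 genes, and it did not pass the test across all genes. It is found at 46016993 to 46032369 of chromosome 17 (GRCm38, minus strand). Normalized counts of Vegfa were 6978, 7423 and 6643 in control and 6407, 5833 and 6163 in AKO. The groups did not overlap and AKO was lower, with control replicate 3 and AKO replicate 1 closest to each other. The means were 7015 ± 391 (SD, n = 3) and 6134 ± 288 (SD, n = 3), so that AKO was at 87.4% of control. The log2 fold change was -0.19 (SE 0.07, 95% interval -0.35 to -0.03), with an adjusted p of 0.498 in limma (0.0233 before adjustment). An exact permutation test gave p = 0.1, the smallest possible with 3 against 3 samples. When the reads were scaled by library total instead, the groups overlapped, with 360.5 CPM in control replicate 3 and 363 in AKO replicate 1 (exact permutation test, p = 0.2). On this scale, AKO differed by -0.13 in log2. With the muscle level as a covariate, the log2 fold change was -0.20.

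Vegfb, a VEGF that binds FLT1 and is abundant in oxidative tissues, lies on chromosome 19 from 6982473 to 6987651. Its values were 3614, 3772 and 3684 normalized counts in control and 3541, 3264 and 3536 in AKO. The AKO samples were again all below the control samples, but replicates 1 and 3 of AKO by little. The AKO mean was 93.4% of the control mean, with a log2 fold change of -0.10 (SE 0.06, adjusted p = 0.674 in limma). Scaled by library total, the groups overlapped for Vegfb too, and its log2 fold change was -0.04. Without AKO replicate 2, the log2 fold change of Vegfb was -0.06. Vegfc, which acts chiefly on lymphatic vessels and lies on chromosome 8 from 54077606 to 54187096, had 56.2, 49.5 and 62.0 normalized counts in control and 69.1, 42.0 and 56.9 in AKO. Its groups overlapped fully, with the highest and the lowest value both in AKO. The Vegfc means were 55.9 ± 6.28 and 56.0 ± 13.6 (SD, n = 3), and the 95% interval of the fold change, from 0.697 to 1.39, was wide at this depth. The log2 fold change of Vegfc was -0.02 (SE 0.22, adjusted p = 0.990 in limma), or 0.038 when scaled by library total. The control SD of Vegfc is below the counting error of its mean and understates the spread.

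The promoters of the factors whose groups did not overlap, and of the receptors they bind, are shown because hypoxia-inducible factors act on many vessel genes through the letters ACGTG or GCGTG. Each is the 250 bases before the RefSeq start site on GRCm38.p6, written 5′ to 3′ on the strand of the gene, with these letters on either strand in capitals (CACGT and CACGC where they lie on the other strand, none overlapping another). The windows are chr17:46032378-46032627 for Vegfa, chr19:6987652-6987901 for Vegfb, chr5:75978456-75978705 for Kdr and chr5:147726012-147726261 for Flt1, all on the minus strand.
Vegfa: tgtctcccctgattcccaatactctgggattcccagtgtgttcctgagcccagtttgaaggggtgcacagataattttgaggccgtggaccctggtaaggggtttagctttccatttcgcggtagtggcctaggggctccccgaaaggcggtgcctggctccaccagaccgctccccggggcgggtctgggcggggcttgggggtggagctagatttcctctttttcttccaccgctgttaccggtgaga
Vegfb: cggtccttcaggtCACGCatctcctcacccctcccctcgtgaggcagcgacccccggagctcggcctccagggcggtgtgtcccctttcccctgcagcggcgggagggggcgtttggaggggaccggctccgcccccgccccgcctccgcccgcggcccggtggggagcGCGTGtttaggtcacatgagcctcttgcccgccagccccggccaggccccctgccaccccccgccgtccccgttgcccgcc
Kdr: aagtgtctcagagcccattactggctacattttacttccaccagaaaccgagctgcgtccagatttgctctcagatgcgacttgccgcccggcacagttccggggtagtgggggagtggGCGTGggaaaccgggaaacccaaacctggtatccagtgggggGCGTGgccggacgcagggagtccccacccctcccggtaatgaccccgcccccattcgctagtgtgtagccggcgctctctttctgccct
Flt1: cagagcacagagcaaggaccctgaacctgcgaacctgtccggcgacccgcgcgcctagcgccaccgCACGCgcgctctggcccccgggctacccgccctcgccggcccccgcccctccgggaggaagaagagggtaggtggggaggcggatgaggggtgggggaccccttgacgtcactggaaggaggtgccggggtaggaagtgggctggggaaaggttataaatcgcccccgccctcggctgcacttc
The Vegfa window held none of these letters, Vegfb held 2 matches, Kdr 2 and Flt1 1. Bases further upstream were not searched, so that a window without a match does not mean a gene without one. Of 32851 windows of the same length, 38.6% held at least 1, so that such a match is common. The Tek and Vegfc windows held none. A second annotated Vegfa start lies inside the gene. Its window (chr17:46025164-46025413), held 2 matches and is not printed.

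Angpt1, the TEK agonist, had nearly the same mean in both genotypes, and Angpt2, its frequent antagonist, had a higher mean in AKO without passing the test. Angpt1 (chromosome 15, 42424723 to 42676977) had 554, 422 and 460.5 normalized counts in control and 583, 378 and 496.5 in AKO. The spread within each group was far larger than the difference of the means, which were 479 ± 68.0 and 486 ± 103 (SD, n = 3). The log2 fold change of Angpt1 was 0.01 (SE 0.17, adjusted p = 0.995 in limma), and 14.2% of its exonic bases are shared with Gm17473 on the opposite strand. Angpt2 (chromosome 8, 18690263 to 18741562) had 140.5, 148 and 143 normalized counts in control and 144, 179 and 189.9 in AKO. Replicates 2 and 3 of AKO were above all control samples, and AKO replicate 1 lay among them. The means were 144 ± 4.01 and 171 ± 23.9 (SD, n = 3), with a log2 fold change of 0.24 (SE 0.13, 95% interval -0.06 to 0.53, adjusted p = 0.630 in limma). The control SD of Angpt2 is below counting error. Scaled by library total, all AKO samples were above all control samples for Angpt2 (exact permutation test, p = 0.1), with an adjusted p of 0.477 in limma.

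**Figure D2:**
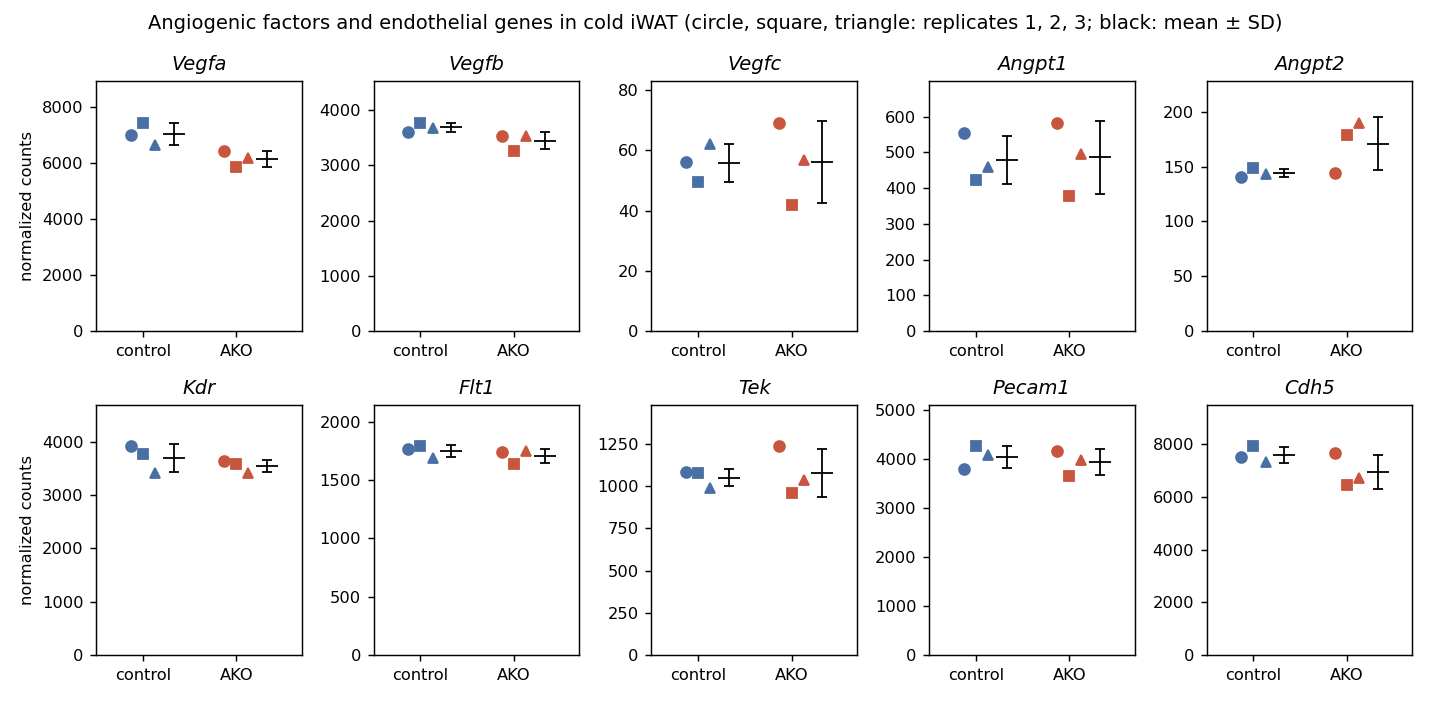
Normalized counts of each gene in the 3 control (blue) and 3 AKO (red) samples, with the mean ± SD in black and axes from 0. Vegfa and Vegfb separate the groups by small margins, and the groups overlap for the other 8 genes.

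The receptor genes overlapped between the genotypes, and none passed the test. Kdr, the main signaling receptor for VEGFA (chromosome 5, 75932827 to 75978458), had 3912, 3766 and 3407 normalized counts in control and 3640, 3590 and 3420 in AKO. The AKO values lay within the range of the control values, and AKO was at 96.1% of control. The log2 fold change of Kdr was -0.06 (SE 0.07, adjusted p = 0.870 in limma), or 0.0029 when scaled by library total. Flt1 (chromosome 5, 147561604 to 147726011) had 1766, 1787 and 1690 normalized counts in control and 1735, 1633 and 1746 in AKO, and AKO was at 97.6% of control. Only AKO replicate 2 was outside the control range, and the log2 fold change was -0.04 (SE 0.06, adjusted p = 0.909 in limma), or 0.023 when scaled by library total. The counts do not separate the membrane-bound from the soluble form of FLT1. Tek (chromosome 4, 94739289 to 94874976) had 1085, 1080 and 993 normalized counts in control and 1237, 962 and 1038 in AKO. Its highest and lowest values were both in AKO samples, and AKO was at 102.5% of control (log2 fold change 0.03, SE 0.10, adjusted p = 0.963 in limma). The 95% intervals of the fold change were 0.861 to 1.08 for Kdr, 0.887 to 1.07 for Flt1 and 0.871 to 1.19 for Tek.

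Pecam1 and Cdh5, which encode adhesion proteins of endothelial cell junctions (PECAM1, or CD31, and VE-cadherin) and are widely used to mark vessels, also overlapped between the groups. Pecam1 (chromosome 11, 106654217 to 106750628) had 3806, 4257 and 4073 normalized counts in control and 4169, 3659 and 3984 in AKO. Its means were 4046 ± 227 and 3937 ± 258 (SD, n = 3), with a log2 fold change of -0.04 (SE 0.07, adjusted p = 0.921 in limma), or 0.019 when scaled by library total. The 95% interval of the Pecam1 fold change ran from 0.865 to 1.09. Cdh5 (chromosome 8, 104101625 to 104144511) had 7522, 7927 and 7352 normalized counts in control and 7692, 6451 and 6744 in AKO. Replicates 2 and 3 of AKO were below all control samples, and AKO replicate 1 was above replicates 1 and 3 of control. The means of Cdh5 were 7600.2 ± 295 and 6962 ± 649 (SD, n = 3), with a log2 fold change of -0.13 (SE 0.08, adjusted p = 0.682 in limma). The log2 fold change of Cdh5 was -0.071 when scaled by library total and -0.077 without AKO replicate 2.

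None of the 10 genes passed an adjusted p of 0.05, where limma called 0.0144% of the 13855 genes tested. Of the 10, 1 (Vegfa) had a p under 0.05 before adjustment, compared with 9.1% of all genes tested (4.69% lower and 4.41% higher in AKO). DESeq2 on the recovered reads called none of the 10, with 0.998% of genes called, and edgeR called none, with 0.0216% called. DESeq2 and edgeR each gave 1 of the 10, also Vegfa, a p under 0.05 before adjustment, compared with 6.25% and 9.24% of all genes. For 2 of the 10 the groups did not overlap, compared with 14.5% of all genes tested, and both were lower in AKO, compared with 8.31% in that direction. The median log2 fold change was -0.04 over the 10 genes and 0.01 over all genes tested. The median absolute log2 fold change was 0.05 over the 10 genes and 0.10 over all genes. Of the 10 genes, 7 were lower by mean log2 value in AKO, compared with 48.1% of all genes, and 3 with library totals, a scaling that moved the median of all genes from 0.01 to 0.07. With the muscle level as a covariate, limma called none of the 10, and their median was -0.02.

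**Figure D3:**
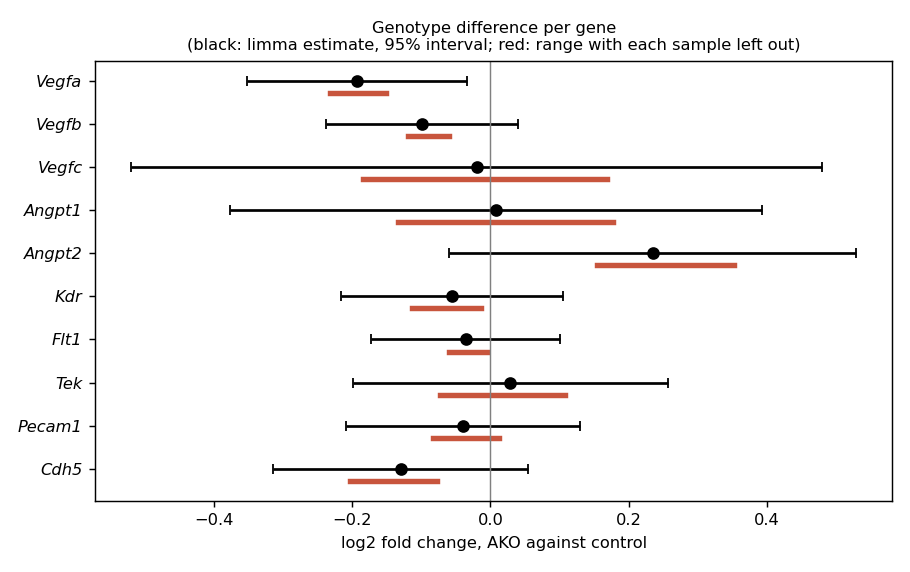
Log2 fold change of each gene, AKO against control, with its 95% limma interval in black and the range of estimates with each sample left out in red. The interval of Vegfa, from -0.35 to -0.03, is the only one of the 10 that leaves out 0.

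AKO replicate 2 held the lowest value of all 6 samples for 8 of the 10 genes, all but Kdr and Angpt2. It held the lowest value for 19 of the 38 genes in a list of pan-endothelial genes (50%) and for 17.6% of all genes tested. With library totals as scaling, it was lowest for 6 of the 10. Control replicate 2 was highest for 5 genes (Vegfa, Vegfb, Flt1, Pecam1 and Cdh5), and AKO replicate 1 for Vegfc, Tek and Angpt1. Without AKO replicate 2, the median log2 fold change of the 10 genes was 0.00, and 5 of the 10 were lower in AKO. Without AKO replicate 1, 3 of the 10 had a p under 0.05 before adjustment, namely Vegfa (log2 fold change -0.22) and Cdh5 (-0.20) lower and Angpt2 (0.35) higher, and 9 of the 10 were lower. Of the 3 AKO samples, replicate 1 had the least muscle RNA.

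**Figure D4:**
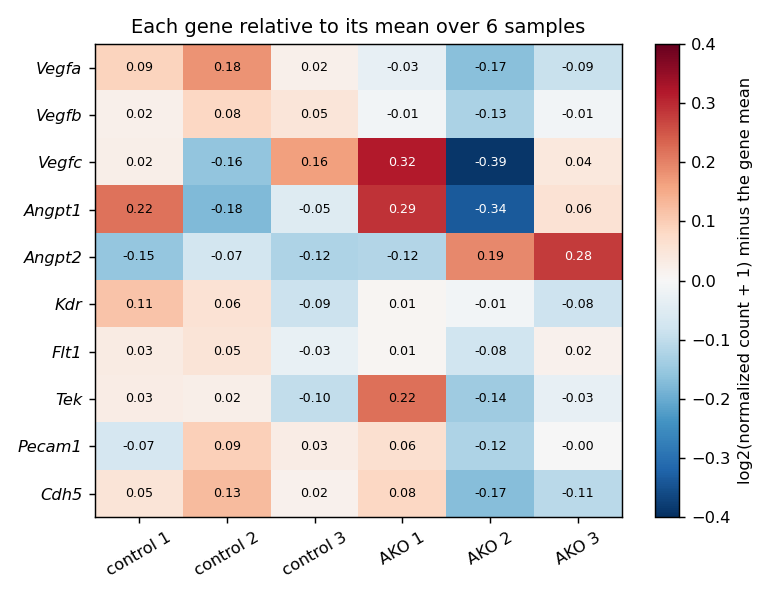
Log2(normalized count + 1) of each gene minus its mean over the 6 samples, red above and blue below the mean. The column of AKO replicate 2 is below the mean for 9 of the 10 genes, and Angpt2 runs opposite to most of the other genes in that sample.

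Ratios of genes within a sample do not depend on the scaling, and 4 were formed after the values had been seen. The ratio of Vegfa to Pecam1 was 1.83, 1.74 and 1.63 in control and 1.54, 1.59 and 1.55 in AKO, lower in each AKO sample (exact permutation test, p = 0.1, or 0.4 adjusted over the 4 ratios). The ratio of Angpt2 to Angpt1 was 0.254, 0.352 and 0.311 in control and 0.247, 0.473 and 0.383 in AKO, with overlap between the groups (exact permutation test, p = 0.5). The ratio of Flt1 to Kdr was 0.474 ± 0.0222 and 0.481 ± 0.0280 (SD, n = 3, exact permutation test, p = 0.7). The ratio of Cdh5 to Pecam1 was 1.88 ± 0.0873 and 1.77 ± 0.0762 (SD, n = 3, exact permutation test, p = 0.2).

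Other genes of the VEGF and angiopoietin pathways did not pass the test either. Over 9 further VEGF family genes, the median log2 fold change was 0.00, with 4 lower and none with a p under 0.05 before adjustment. The co-receptor Nrp1 had 4215 ± 284 normalized counts in control and 3949 ± 380.1 in AKO (SD, n = 3, log2 fold change -0.10), and Nrp2 and the semaphorin receptor Plxnd1 had log2 fold changes of -0.03 and 0.00. Over 6 further genes around the TIE receptors, the median was 0.01. With each sample left out, these medians lay between -0.058 and 0.048 and between -0.047 and 0.065. Svep1, an extracellular matrix protein, had 3287 ± 76.6 normalized counts in control and 2951 ± 184 in AKO (SD, n = 3, log2 fold change -0.16, adjusted p = 0.537 in limma), with no overlap between the groups. The phosphatase gene Ptprb, whose product dampens TEK, had a log2 fold change of -0.01, and Foxo1, a transcription factor restrained by TEK signaling, one of 0.03.

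Of 38 pan-endothelial genes, none passed the adjusted threshold, and 30 had a lower and 8 a higher mean in AKO. This split was 20 to 18 with library totals as scaling, and without AKO replicate 2 it was 23 to 15. Their median log2 fold change was -0.07, compared with 0.01 over all genes tested, and the summed level ran from 55855 to 59676 normalized counts in control and from 51068 to 56579 in AKO. The most highly expressed were Adgrf5, an adhesion receptor of vessel walls (log2 fold change -0.09), Eng, a TGF-β co-receptor (-0.18), and Mcam, an adhesion molecule (-0.01). Eng had 4384 ± 441 normalized counts in control and 3856 ± 236 in AKO (SD, n = 3), with all AKO samples lower and an adjusted p of 0.576 in limma. Lyl1, a transcription factor of blood and endothelial cells, was the single gene of the list with a p under 0.05 before adjustment. It had 249.3 ± 11.3 normalized counts in control and 304 ± 15.4 in AKO (SD, n = 3), a log2 fold change of 0.28 (adjusted p = 0.447 in limma).

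Genes of particular vessel types likewise held no call. The median log2 fold change was -0.09 over 13 capillary genes, -0.01 over 11 arterial, 0.09 over 8 venous and 0.13 over 6 lymphatic genes. With library totals as scaling, these medians were -0.03, 0.05, 0.15 and 0.19. They also moved with single samples, to -0.041 for capillary genes without control replicate 2, to -0.062 for arterial genes and 0.0019 for venous genes without AKO replicate 1, to 0.015 for venous genes without control replicate 2, and to 0.069 for lymphatic genes without control replicate 3. The capillary list shares 1 gene, Kdr, with the 10 genes, and its median without control replicate 2 was the value of Kdr itself. The capillary list also includes Fabp4 and Cd36, fatty acid handling genes that adipocytes express strongly, with log2 fold changes of -0.17 and -0.11. Aqp1, a water channel of vessels, had one of -0.06, and Tmem100, a BMP-responsive endothelial gene, one of 0.38 (adjusted p = 0.510 in limma). The most highly expressed arterial genes, the Notch ligand Jag1, the elastic fiber gene Fbln5 and Sema3g, had log2 fold changes of -0.01, 0.09 and -0.08. The venous genes Lrg1, Ephb4 and Nr2f2 had 0.12, -0.13 and 0.07. Lyve1, a hyaluronan receptor of lymphatic vessels and of some macrophages, had 835 ± 244 normalized counts in control and 1291 ± 317 in AKO (SD, n = 3, log2 fold change 0.65, adjusted p = 0.516 in limma). Pdpn, carried by lymphatic endothelium and fibroblasts, had a log2 fold change of 0.40 (adjusted p = 0.540 in limma). Flt4, the lymphatic VEGF receptor, had one of -0.10, and Prox1, the lymphatic master regulator, was below the minimum level for testing. With the muscle level as a covariate, the log2 fold change of Lyve1 was 0.30, and that of Pdpn 0.17.

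Over 14 tip cell and sprouting genes the median log2 fold change was 0.09, and over 12 Notch genes it was -0.01 (0.15 and 0.05 with library totals), with no call in either list. The tip cell median was -0.0069 without control replicate 2, 0.022 without AKO replicate 3 and 0.14 without AKO replicate 2, and the Notch median was 0.046 without AKO replicate 2. Aplnr, the apelin receptor of sprouting vessels, had a log2 fold change of -0.08, and Pdgfb, which recruits pericytes, one of -0.12. Notch1 and Notch4 had log2 fold changes of -0.0041 and 0.037. Heyl, a Notch target, had 479 ± 56.1 normalized counts in control and 389 ± 42.1 in AKO (SD, n = 3, log2 fold change -0.30, adjusted p = 0.515 in limma).

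Markers of neighboring cell types gave the background of tissue makeup. All 10 macrophage markers had a higher mean in AKO (median log2 fold change 0.37), and their sum ran from 11560.4 to 16451 normalized counts in control and from 14381 to 19743 in AKO. All 8 progenitor and fibroblast markers were also higher (median 0.29), with sums from 66078 to 94377 and from 78861 to 106495. The macrophage and progenitor medians were 0.25 and 0.18 with the muscle level as a covariate, and 0.25 and 0.19 without control replicate 1. Of these 10 and 8 markers, 5 and 4 had a p under 0.05 before adjustment, compared with 9.1% of all genes tested (4.41% higher in AKO). None of the 18 passed with limma, and DESeq2 called 1, Dpp4 (adjusted p = 0.00844), compared with 0.998% of all genes. Over 11 mural cell markers the median was -0.04 (0.02 with library totals, -0.18 with the muscle level as a covariate, -0.12 without control replicate 1 and 0.01 without AKO replicate 1 or control replicate 2), with Cspg4 at 0.03, Notch3 at -0.09 and Pdgfrb at -0.02. Over 10 adipocyte markers it was -0.11, or -0.059 without AKO replicate 2. The 7 thermogenic genes of beige adipocytes had a median of -1.07. Of the 7, limma called 1, the fatty acid elongase gene Elovl3, compared with 0.0144% of all genes tested. For 6 of the 7 the groups did not overlap and AKO was lower, compared with 8.31% of all genes tested. DESeq2 called 6 of the 7 (Ucp1, Dio2, Cidea, Cox7a1, Elovl3 and Cox8b), compared with 0.998% of all genes. Ucp1 averaged 29.9% of its control level in AKO. Mural, macrophage and progenitor markers were not at 0 in any sample.

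**Figure D5:**
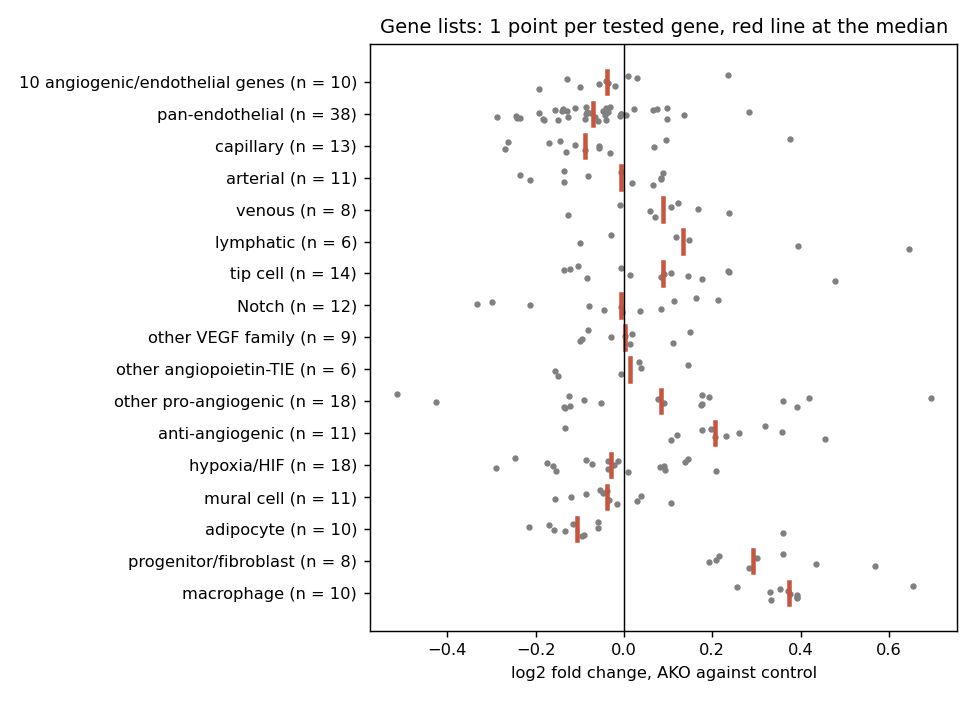
Log2 fold change, AKO against control, of each tested gene in 17 lists, with the median of each list as a red line. The endothelial lists lie close to 0, with medians from -0.09 (capillary) to 0.13 (lymphatic), and the macrophage list has the highest median of those drawn (0.37).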

How the data were processed

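The authors sequenced RNA of iWAT from 3 control and 3 AKO samples, and the groups follow the genotype given in the labels. The authors used STAR for alignment to GRCm38.p6, featureCounts with GENCODE M25 for counting and DESeq2 for testing. The signal deposited for each gene is a normalized count, scaled by sample size factors but not by gene length. Columns with the authors' own log2 fold changes and p-values were left aside. Whether counting used strand is not given in the sources used here.

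The members and gene lists were chosen with earlier results of these data known. limma (version 3.58.1, R 4.3.3) with a variance trend was run on log2(value + 1) for genes with a mean of at least 10 (13855 of 16538), with Benjamini-Hochberg adjustment and a threshold of 0.05. The pseudocount makes fold changes of low genes too small. Dividing each sample by its smallest step gave whole reads for 100% of values (within 0.001 of a read), and these were tested with edgeR 4.0.16, DESeq2 1.42.0 and limma-voom. Depth was 17570335 to 18373707 reads, and counting error matters mainly for Vegfc and Angpt2. The control SD was also near it for Flt1, Vegfb and Tek, at 1.23, 1.31 and 1.59 times the counting error. Chi-square tests found more spread among replicates than counting gives (10.4 to 21.2 per degree of freedom). The labels do not say that the pools came from separate cohorts, so that p-values measure the spread between these samples. limma, limma-voom, edgeR and DESeq2 were first tested on simulated counts. Exonic lengths and positions came from GENCODE M21 (GRCm38), which matched 96.1% of symbols, and promoters from RefSeq, which gave windows for 6 of the 10 genes (Vegfa, Vegfb, Vegfc, Kdr, Flt1 and Tek).

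The genes named are all members, Nrg4, and of each list the 3 most highly expressed genes and those with a p under 0.05 before adjustment, of which only part is printed. A few others, such as Prox1 and those named among cell type markers, were named after their values were seen. Alternatives were other pseudocounts, filters, tests and scalings, the replicate number as a block, the mean log2 level of muscle markers as a covariate, and each sample left out. Scaling by library totals was added after the data were seen.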

Additional observations from a re-analysis of the deposited data

How the results depend on the processing

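None of the 10 genes passed the adjusted threshold in any of the 19 alternative fits, nor an adjusted p of 0.1 in limma. For single genes the direction kept in 172 of 190 alternative estimates. Vegfa stayed lower in AKO in all fits, with log2 fold changes from -0.23 to -0.15 with each sample left out and an adjusted p from 0.384 to 0.794. Vegfc, with a log2 fold change of -0.02, changed sign with DESeq2 (0.0025), edgeR with RLE factors (0.0040) or TMM factors (0.016), limma-voom (0.0057), library totals (0.038) and the muscle covariate (0.048). With library totals, Kdr (0.0029), Flt1 (0.023) and Pecam1 (0.019) changed sign too, and the median of the pan-endothelial genes moved from -0.07 to -0.012. With each sample left out, the log2 fold changes ranged from -0.18 to 0.17 for Vegfc, -0.083 to 0.012 for Pecam1, -0.074 to 0.11 for Tek and -0.13 to 0.18 for Angpt1. The number of the 10 genes with a p under 0.05 before adjustment, 1 with the main settings, was 0 with limma-voom and with library totals, and ranged from 0 to 3 with each sample left out (0 without AKO replicate 2, AKO replicate 3 or control replicate 2, and 3 without AKO replicate 1). The cause was not tested.

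Over all genes, limma called 2, compared with 149 for DESeq2, 3 for edgeR with TMM and 5 with RLE factors, 6 with at least 10 in every sample, 11 with robust shrinkage and 0 with the muscle covariate. It ranged from 0 to 3 with each sample left out. Same-numbered samples are pools of different mice, and the correlations of their deviations (0.135, -0.351 and 0.240) do not show pairing. With the replicate number as a block, the log2 fold change of Vegfa was -0.19, and 0 of the 10 genes and 2 of all genes were called.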

Other observations

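Secreted inhibitors of vessel growth had mostly higher means in AKO iWAT. Of 11 tested, 10 were higher and 1 lower, also with library totals, and the median log2 fold change was 0.21, compared with 0.01 over all genes tested. Without control replicate 1 the median was 0.11. Thbs2, a matrix protein that restrains vessel growth, had normalized counts of 549.9, 560.3 and 623 in control and 879, 728 and 774 in AKO, so that all AKO samples were higher. Its log2 fold change was 0.46 (SE 0.09). The adjusted p was 0.254 with limma, 0.0167 with DESeq2 and between 0.0167 and 0.608 over all alternatives. With each sample left out, the log2 fold change of Thbs2 ranged from 0.38 to 0.51. The highly expressed Timp2, Timp3 and Serpinf1, which fibroblasts also make, had log2 fold changes of 0.36, 0.18 and 0.23, and the progenitor and fibroblast markers had a median of 0.29 in the same samples. With the muscle level as a covariate, the median was 0.17 for the inhibitors and 0.18 for the progenitor and fibroblast markers. The part of fibroblast RNA in the list of inhibitors was not tested.

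Among 18 genes of hypoxia signaling the median log2 fold change was -0.03, with 11 lower, and with library totals it was 0.03, with 7 lower. Without AKO replicate 1 it was 0.012. Egln1, an oxygen sensor that marks HIF proteins for breakdown, had 2805, 3223 and 2796 normalized counts in control and 2481, 2301 and 2417 in AKO. All AKO samples were lower, at a log2 fold change of -0.29 (SE 0.07). Its adjusted p was 0.350 with limma and 0.0740 with DESeq2. Epas1, which encodes HIF-2α and is abundant in endothelial cells and adipocytes, had 14901, 14943 and 14587 normalized counts in control and 14062, 12655 and 13245 in AKO, a log2 fold change of -0.15 (adjusted p = 0.550 in limma). Ldha and Hk2, glycolytic targets of HIF, had log2 fold changes of -0.02 and -0.04. Over 18 other factors that promote vessel growth the median was 0.08 (-0.016 without AKO replicate 3 and -0.015 without control replicate 2), and Lep, Cxcl12 and Igf1 had log2 fold changes of 0.36, -0.05 and -0.09.

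The genes whose levels followed the mean log2 level of Kdr, Flt1, Tek, Pecam1 and Cdh5 most closely over the 6 samples were Zkscan5, Sh3bp5, Nelfa, Carhsp1 and Tmem44, with Pearson's r from 0.983 to 0.992. These are the highest of all genes tested and are given as a description of likeness only. The mean itself ranged over 0.18 on the log2 scale. Over the 38 pan-endothelial genes the median r was 0.395, with 16 above 0.5, compared with a median of 0.016 and 15.5% above 0.5 over all genes. The r of single pan-endothelial genes ranged from -0.902 to 0.912.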
